A study of Mus musculus with 18 samples.

Results

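H3K9me2 domains of mouse embryonic stem cells (ESC) were set against the Lamin B domains that were found later, in cardiomyocytes (CM) differentiated from such cells for 10 days. The comparison was made on chromosomes 1 to 19 and only in sequence outside ESC Lamin B domains, so that it concerns chromatin that was marked but not called lamina-associated in ESC. Of the 2431 ESC H3K9me2 domains on these chromosomes, 1869 had sequence outside ESC Lamin B and were the members described here. The other 562 lay wholly inside ESC Lamin B. Among the members, 1299 touched no ESC Lamin B domain and are called islands, and 570 overlapped or abutted one and are called flanking domains.

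Lamin B belongs to the nuclear lamina, the protein mesh under the inner nuclear membrane, and chromatin held against it forms long, gene-poor and mostly silent domains. H3K9me2, dimethylation of lysine 9 of histone H3, is a mark of repressed chromatin that is abundant at the nuclear periphery. Regions attached to the lamina change in part when stem cells take on a lineage.

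The CM Lamin B list is named in the labels by 2 wild-type libraries. For ESC H3K9me2 the labels of 4 libraries name the list, 2 of them wild-type and 2 from uninduced CMV-creERT; Hdac3f/f cells, a line with floxed alleles of a histone deacetylase gene and a tamoxifen-inducible Cre. The ESC Lamin B list, which only set the background, is named by 6 libraries, comprising 2 wild-type, 2 uninduced Hdac3f/f and 2 Hdac3-/- after 1 µg/ml tamoxifen for 24 hours. The labels do not say which of them entered a list, and an ESC domain may come from wild-type cells, from the Hdac3 line or from both. Each list was given once, with no value per library. Spread between replicates and sequencing depth are therefore unknown, cell identity could not be checked against marker genes, and the tests below concern position along the chromosomes rather than a difference between cell types.

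Outside ESC Lamin B, sequence that carried H3K9me2 in ESC lay in CM Lamin B domains far more often than sequence that did not. The background measured 1378.3 Mb, or 57.6% of the chromosome span, and CM Lamin B covered 8.29% of it. ESC H3K9me2 occupied 269.4 Mb of this background, and 26.8% of that sequence lay in CM Lamin B. The remaining 1108.8 Mb without ESC H3K9me2, called unmarked below, had a CM Lamin B share of 3.79%. The coverage thus differed by 23.0 percentage points, a ratio of 7.07. Read from the other side, ESC H3K9me2 held 19.5% of the background but 63.2% of the CM Lamin B sequence in it, 72.2 of 114.3 Mb. Most of the marked sequence, 73.2% of it, still had no CM Lamin B domain.

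Position was tested by sliding the ESC H3K9me2 track around each chromosome, along the sequence outside ESC Lamin B joined end to end, in 10000 random rotations. This keeps the order and spacing of marked sequence along the joined sequence, but not the whole length of domains that overlap ESC Lamin B. Rotated tracks differed from the unmarked sequence by 0.327 ± 0.934 points (SD over rotations) and never by more than 5.85 points, against the observed 23.0 points (two-sided permutation p = 0.0002, the smallest these rotations can give, and 0.00024 after Benjamini-Hochberg adjustment over 6 tests). Both lists might border the same ESC Lamin B domains, so the difference was also taken within 7 bins of distance to the nearest ESC Lamin B domain and combined with Mantel-Haenszel weights. At like distance, coverage was 25.3% in marked and 5.46% in unmarked sequence, a difference of 19.9 points (rotated 0.300 ± 0.856, permutation p = 0.0002, adjusted 0.00024). Islands alone, which touch no ESC Lamin B domain, reached 19.7% against 3.41% at like distance, a difference of 16.2 points (rotated 0.177 ± 0.909, permutation p = 0.0002, adjusted 0.00024). All 3 differences lay outside the range of their rotations. With only the CM Lamin B domains at or above the median score of their list they were smaller, at 13.2, 10.4 and 5.31 points in the same order, and each still passed the test (permutation p = 0.0002).

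**Figure D1:**
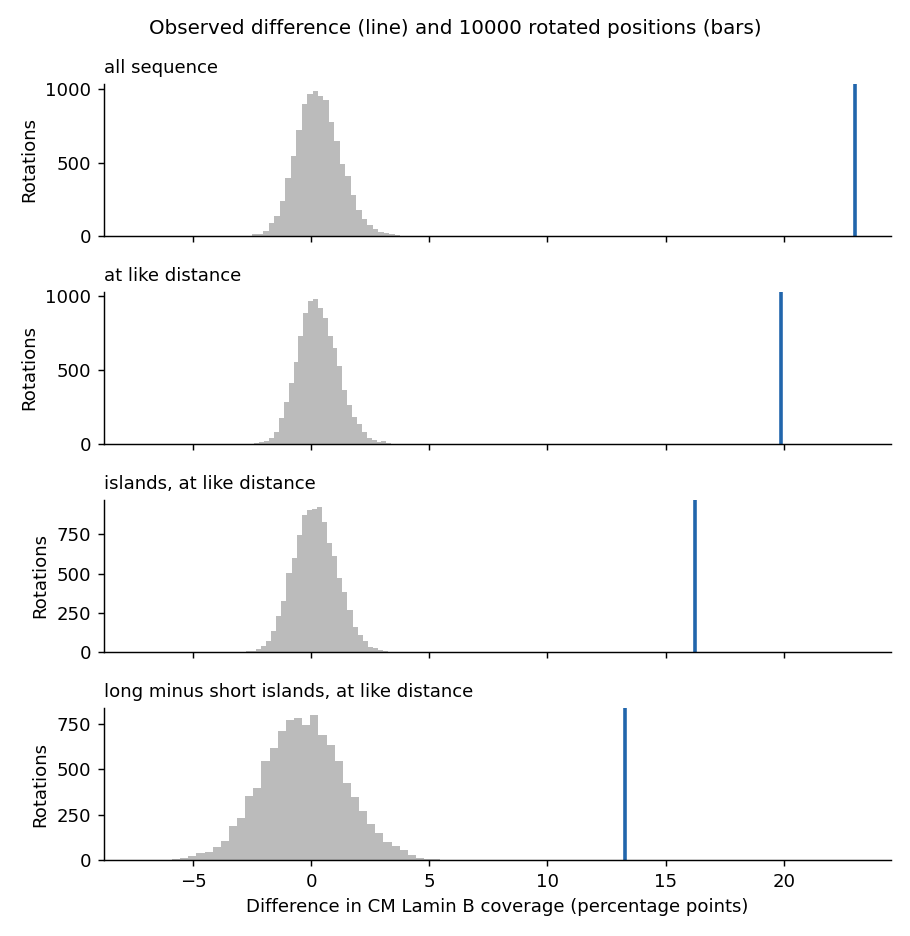
Differences in CM Lamin B coverage, in percentage points, observed (vertical line) and for 10000 rotations of the ESC H3K9me2 track (bars, number of rotations), for all sequence, at like distance from ESC Lamin B, for islands and for long against short islands. The observed values of 23.0, 19.9, 16.2 and 13.3 points lie to the right of every rotated value.

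Coverage by CM Lamin B went down with distance from the ESC Lamin B domains up to 1000 kb, in marked and unmarked sequence alike, and proportionally further in unmarked sequence. Beyond 1000 kb it was not lower than at 500 to 1000 kb in either. For unmarked sequence this rested on the last CM Lamin B domain of chromosome 3, described below. Within 25 kb of an ESC Lamin B domain, CM Lamin B covered 56.4% of marked and 31.8% of unmarked sequence. At 100 to 250 kb these shares were 35.3% and 8.05%, and at 500 to 1000 kb they were 17.2% and 1.68%. The difference in points was 31.9 at 25 to 50 kb, 15.5 at 500 to 1000 kb and 15.3 in the farthest bin, whereas the ratio rose from 1.77 under 25 kb to 10.3 at 500 to 1000 kb. In each of the 7 bins the difference passed the rotation test (permutation p = 0.0002, also 0.0002 after adjustment over the 7 bins).

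The difference was also present far from the lamina of ESC. At 1000 kb or more from any ESC Lamin B domain lay 110.4 Mb of ESC H3K9me2, of which 17.3% was in CM Lamin B, compared with 1.97% of 629.0 Mb of unmarked sequence. This unmarked share includes the last CM Lamin B domain of chromosome 3, chr3:154363001-159599000 (mm9), 5.24 Mb with no ESC domain of either kind. Without that domain the unmarked share was 1.22%, below the 1.43% then found at 500 to 1000 kb. The ratio rose from 8.78 to 14.2 and the difference was 16.1 points, no longer below that at 500 to 1000 kb (15.8 points). The difference had the same sign in most chromosomes of every bin, from 19 of 19 at 50 to 100 and 100 to 250 kb to 14 of 19 at 500 to 1000 kb, where chromosomes 6, 10, 11, 17 and 19 were the exceptions. In the farthest bin 18 of 19 chromosomes had the higher share in marked sequence, all but chromosome 6. At equal distance, flanking domains had higher coverage than islands in every bin up to 1000 kb, for example 43.7% against 27.4% at 100 to 250 kb. Whether flanking domains and islands differ was not tested.

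**Figure D2:**
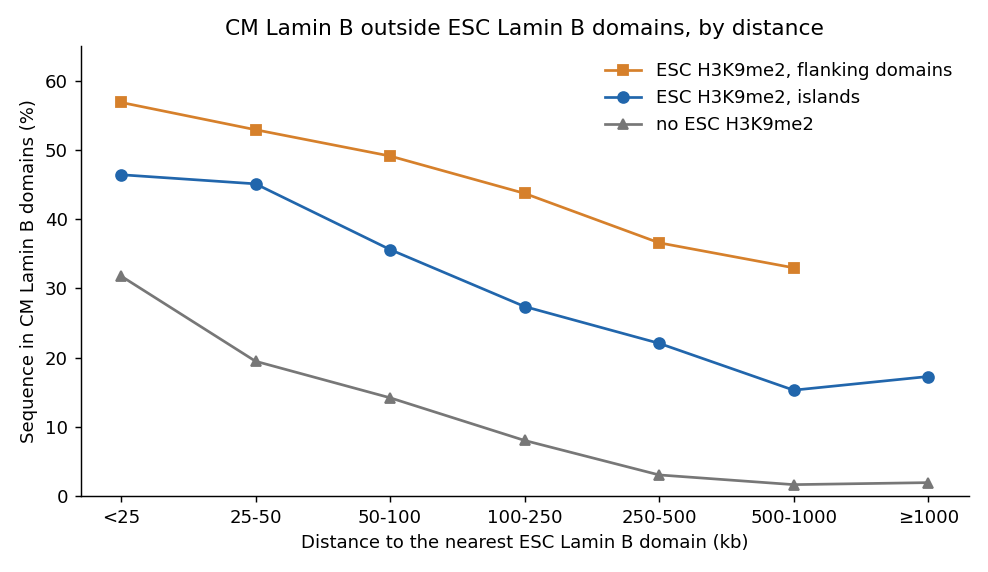
Share of sequence in CM Lamin B domains (percent) against distance to the nearest ESC Lamin B domain (kb), for flanking ESC H3K9me2 domains, ESC H3K9me2 islands and sequence without ESC H3K9me2. All 3 lines fall up to 1000 kb. The island and unmarked lines are slightly higher in the last bin, the unmarked line only with the distal domain of chromosome 3 included. Island sequence lies above unmarked sequence in every bin, at 46.4% against 31.8% within 25 kb and 17.3% against 1.97% at 1000 kb or more. Flanking domains have under 0.1 Mb in the last bin and are not drawn there.

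Longer ESC H3K9me2 domains had higher CM Lamin B coverage than shorter ones. Over all members, by the length of the whole domain, coverage outside ESC Lamin B was 17.0% under 100 kb, 17.4% at 100 to 200 kb, 23.8% at 200 to 500 kb, 29.9% at 500 to 1000 kb and 46.3% at 1000 kb or more. Set against unmarked sequence at like distance, the difference grew in the same order, at 11.3, 13.2, 18.7, 22.9 and 35.8 points. Each of these 5 differences passed the rotation test (permutation p = 0.0002, adjusted 0.0002 over the 5 length classes). Classed instead by the length of the stretch outside ESC Lamin B, coverage was 25.0%, 22.4%, 28.6%, 30.6% and 36.2%. It thus did not rise between the 2 shortest classes. The differences at like distance were then 13.7, 15.5, 22.7, 27.3 and 33.7 points. Length and contact with ESC Lamin B went together in this list, since the median length was 565 kb for flanking domains and 100 kb for islands. Of the 52.2 Mb in the longest class by whole-domain length, 42.3 Mb belonged to flanking domains. Among flanking domains alone coverage did not rise with length, at 60.6%, 53.7%, 45.5%, 38.5% and 50.5% in the same order, which was not tested. The comparison of lengths was therefore repeated in islands.

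Among islands the rise with length was smaller before distance was taken into account and larger after it. Coverage was 16.7% for the 596 islands under 100 kb and 16.7% for the 459 islands of 100 to 200 kb. It was 20.4% for the 188 of 200 to 500 kb, 25.2% for the 48 of 500 to 1000 kb and 28.3% for the 8 of at least 1000 kb. Islands of at least 200 kb had 22.8% coverage and exceeded those under 100 kb by 6.11 points (rotated -0.378 ± 1.84, permutation p = 0.0004, adjusted 0.0004). Short islands lay nearer to ESC Lamin B, with a median distance of 493 kb, compared with 820 kb at 100 to 200 kb and 1934.5 kb at 500 to 1000 kb. At like distance, long islands had 25.1% and short islands 11.8% coverage, a difference of 13.3 points (rotated -0.311 ± 1.74, permutation p = 0.0002, adjusted 0.00024). In the farthest bin, coverage rose from 6.27% under 100 kb through 13.0%, 14.8% and 26.2% to 26.9% at 1000 kb or more. Nearer bins did not all keep this order. At 500 to 1000 kb, islands of 100 to 200 kb had 8.84% and those under 100 kb 14.9%, and at 50 to 100 kb these shares were 32.1% and 35.2%. At 250 to 500 kb, the 0.768 Mb in islands of 500 to 1000 kb had no CM Lamin B. With CM Lamin B domains limited to those at or above the median score of their list, which dropped 398 domains with a median length of 187 kb, the difference of long and short islands was -2.55 points (permutation p = 0.13), or 2.50 points at like distance (permutation p = 0.069). Neither of these passed the test, so greater coverage of long islands was not found with the longer, higher-scoring CM Lamin B domains alone.

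**Figure D3:**
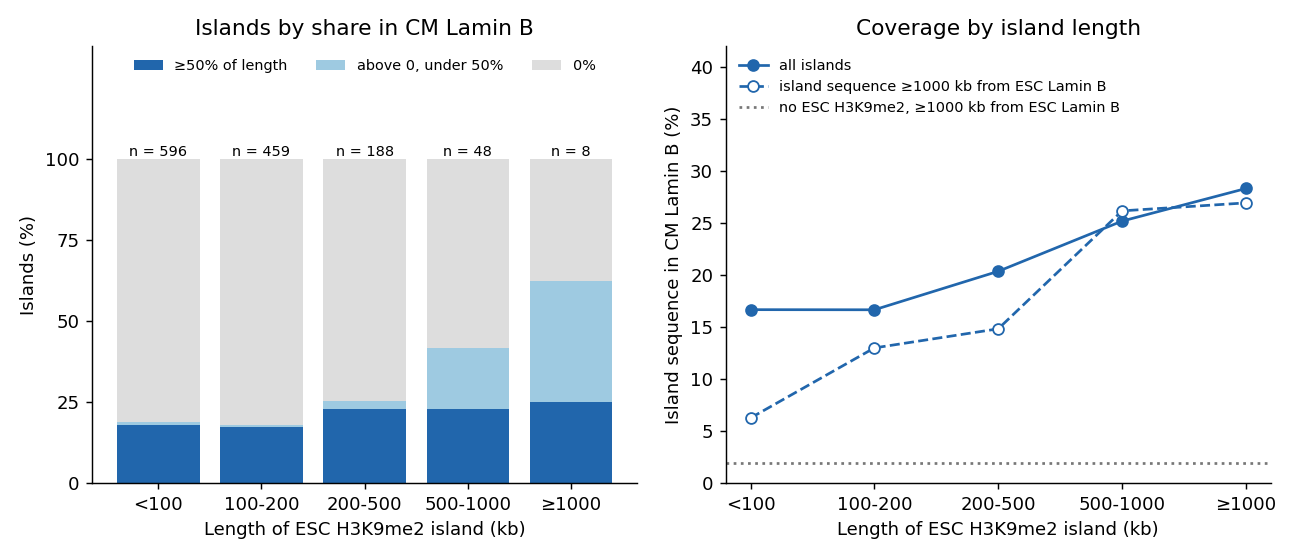
Left, percent of ESC H3K9me2 islands with at least 50%, some or none of their length in CM Lamin B, by island length (kb), with the number of islands above each bar. Right, percent of island sequence in CM Lamin B by island length, for all islands and for island sequence at least 1000 kb from ESC Lamin B, with unmarked sequence at that distance as a dotted line; the former rises from 16.7% to 28.3% and the latter from 6.27% to 26.9%.

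Single islands were mostly either in CM Lamin B or wholly outside it. Of the 1299 islands, 242 (18.6%) had at least 50% of their length in CM Lamin B, set beside the 8.29% of all background sequence that CM Lamin B covered. With the CM Lamin B track rotated instead, 104.7 ± 10.6 islands (8.06%) reached that share, so the observed count was 2.31 times the rotated mean (permutation p = 0.0002, adjusted 0.00024). A further 26 islands had some, but less than 50%, of their length covered, and 1031 (79.4%) had none. With CM Lamin B domains at or above the median score the count was 110 (rotated mean 65.3). It was 84 (rotated mean 28.7) with ESC H3K9me2 domains at or above theirs. With ESC H3K9me2 merged across gaps under 100 kb it was 96 (rotated mean 52.0). Each passed the test (permutation p = 0.0002). These settings change the number of islands or of Lamin B domains by construction, so their counts do not share a base with the 242. Of all 1299 islands, 125 were covered over their whole length. The share with at least 50% coverage went down with distance of the island, from 27 of 63 (42.9%) within 25 kb to 63 of 545 (11.6%) at 1000 kb or more. The authors' domain score, which has no stated scale and grows with length, was compared between islands with at least 50% and with no coverage. Its median was 2.12 and 2.09 under 100 kb, 3.59 and 3.48 at 100 to 200 kb, 9.83 and 7.58 at 200 to 500 kb, and 23.5 and 18.4 at 500 to 1000 kb. For the 2 covered and 3 uncovered islands of at least 1000 kb the order was the other way, at 36.3 and 47.5. These scores were not tested.

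The 5 longest islands ranged from 0% to 55.0% coverage by CM Lamin B. The longest, chr14:22840001-24820000 (mm9, 1980 kb), lay 2968 kb from the nearest ESC Lamin B domain and was 23.3% covered. The next, chr13:70790001-72090000 (1300 kb), was 55.0% covered and lay 2691 kb away. By contrast chr12:107790001-108980000 (1190 kb) and chr8:117740001-118880000 (1140 kb) had no base in CM Lamin B, and chr14:29360001-30520000 (1160 kb) was 25.6% covered. All 5 kept the mark, since CM H3K9me2 covered 94.9% of the first, 99.2% of the second and 100% of the other 3.

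Other long islands had most of their length in CM Lamin B, which the rule that chose them required. After the chromosome 13 island, the longest with at least 50% coverage were chr12:28190001-29230000 (1040 kb, 83.6% covered), chr4:103040001-104030000 (990 kb, 70.0%), chr10:128470001-129410000 (940 kb, 100%) and chr1:195570001-196430000 (860 kb, 100%). The chromosome 1 island lay inside a single CM Lamin B domain of 869 kb, nearly its own length, and 5094 kb from ESC Lamin B. This island and that on chromosome 10 lay in end pieces of the chromosome span, with ESC Lamin B on a single side. Those 5 were 860 to 1300 kb long, and the 5 longest islands without CM Lamin B were 930 to 1190 kb long. Besides the pair on chromosomes 12 and 8 they were chr4:55670001-56690000 (1020 kb), chr15:86330001-87300000 (970 kb) and chr14:58730001-59660000 (930 kb), which lay 1292, 2160 and 5297 kb from ESC Lamin B. CM H3K9me2 covered 100% of each of the 7 islands whose positions are given here.

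The covered island farthest from ESC Lamin B, chr8:131260001-131720000, was 460 kb long and 15241 kb away. This island lay at the end of the chromosome span, with ESC Lamin B on a single side. It lay wholly in a CM Lamin B domain of 484 kb, but CM H3K9me2 covered 0% of it. The next farthest were the neighbours chr16:6080001-6150000 and chr16:6160001-6280000, 12939 and 12809 kb away, also with ESC Lamin B on a single side. Both lay in the same 242 kb CM Lamin B domain and kept H3K9me2 over 100% of their length.

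Flanking domains extended past the ESC Lamin B border by short stretches, and CM Lamin B covered nearly as much of that sequence as it left uncovered. Their sequence outside ESC Lamin B came to 70.5 Mb, with a median of 35 kb per domain, and 46.9% of it lay in CM Lamin B. Divided at the borders, it formed 827 stretches. Of these, 53 filled a whole gap between ESC Lamin B domains and were 65.9% covered, and 774 bordered ESC Lamin B on a single side and were 44.7% covered. Stretches covered over their whole length numbered 32 of 53 and 235 of 774, while 7 and 293 had no base in CM Lamin B. Unmarked sequence within 25 kb of ESC Lamin B was itself 31.8% covered, beside 56.8% of flanking sequence there. At 100 to 250 kb these shares were 8.05% and 43.7%. The stretch counts and shares were not tested. The bins of the lists are 9 kb for ESC Lamin B and 11 kb for CM Lamin B, so borders of the lists can differ by such widths without any change. With all background within 25 kb of ESC Lamin B left out, the difference between marked and unmarked sequence was 21.8 points, or 19.7 points at like distance.

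The longest flanking stretch wholly in CM Lamin B was chr4:64773001-65502000 (729 kb), the whole gap between a pair of ESC Lamin B domains inside an H3K9me2 domain of 17200 kb. In CM it lay within a Lamin B domain of 16786 kb. The others were chr17:51480001-51870000 (390 kb) and chr12:7524001-7900000 (376 kb), within CM Lamin B domains of 2596 and 2475 kb. The longest without CM Lamin B were chr8:91800001-92367000 (567 kb), chr11:35870001-36369000 (499 kb) and chr7:77520001-77976000 (456 kb). CM H3K9me2 covered 96.5% of that on chromosome 8 and 100% of the other 5. Gaps between ESC Lamin B domains, counted here together with the pieces at the ends of each chromosome span, had a larger share in CM Lamin B when short. Short gaps hold only sequence near ESC Lamin B, so these shares do not separate gap length from distance. Marked sequence still had the higher coverage in each gap class. In the 212 gaps under 250 kb, CM Lamin B covered 62.4% of marked and 31.9% of unmarked sequence. In the 140 gaps of at least 3000 kb it covered 19.8% and 2.14%.

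All 19 autosomes had higher CM Lamin B coverage inside than outside ESC H3K9me2, by amounts that varied widely. Inside, coverage ran from 6.02% on chromosome 11 to 57.5% on chromosome 16, with a median of 27.2%. Outside, it ran from 0.0547% on chromosome 11 to 15.0% on chromosome 3, with a median of 3.24%. The difference was 23.4 ± 9.58 points (mean ± SD over 19 chromosomes, which are not replicates), from 5.96 points on chromosome 11 to 47.9 on chromosome 16. Chromosome 16 was high also for islands, of whose sequence 51.0% lay in CM Lamin B, against 3.78% on chromosome 11. The unmarked share of chromosome 3 rested on its distal domain, without which it was 6.82% and the difference 37.7 in place of 29.5 points. Leaving out any single chromosome kept the genome-wide difference between 21.9 and 23.7 points.

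**Figure D4:**
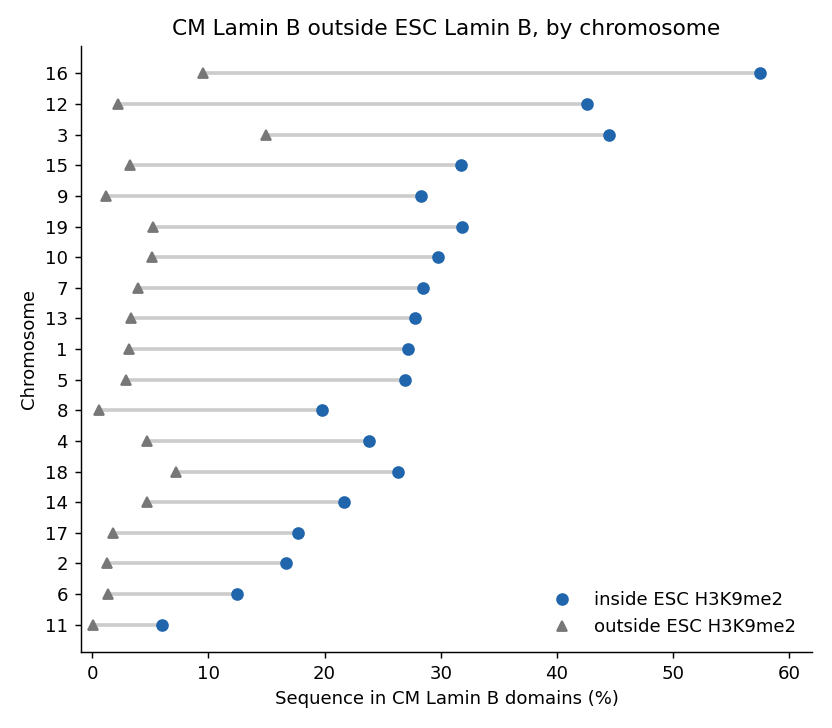
Share of sequence outside ESC Lamin B that lay in CM Lamin B (percent, horizontal axis) on each autosome, inside (circles) and outside (triangles) ESC H3K9me2 domains, ordered by the difference. The circle lies to the right of the triangle on all 19 chromosomes, from 6.02% against 0.0547% on chromosome 11 to 57.5% against 9.53% on chromosome 16.

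Seen from the CM Lamin B list, most domains apart from the ESC lamina lay on chromatin that was marked in ESC. Of the 826 CM Lamin B domains, 205 neither overlapped nor abutted an ESC Lamin B domain, and together they measured 52.5 Mb. ESC H3K9me2, which held 19.5% of all background sequence, covered at least 50% of 137 of these (66.8%). It covered some but less of 23, and none of 45 (22.0%). Those with at least 50% had a median length of 176 kb and those with none 132 kb. The distal chromosome 3 domain is among the 45. These counts were not tested.

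The H3K9me2 list of CM, which played no part in choosing the members, separated the marked sequence further. Where ESC H3K9me2 was also H3K9me2 in CM (222.1 Mb), CM Lamin B covered 31.0%. Where the mark was in ESC alone (47.3 Mb), it covered 7.05%, and where H3K9me2 was in CM alone (97.7 Mb), 28.3%. Sequence with H3K9me2 in neither cell type (1011.2 Mb) was covered over 1.42%. Sequence with the mark in CM alone thus had coverage close to that with the mark in both, and sequence that had it in ESC alone was much lower, though above sequence without it in either. At 1000 kb or more from ESC Lamin B the 4 shares were 20.0%, 5.01%, 21.6% and 0.728% in the same order. These shares were not tested, and since both CM lists describe the same cells, they do not give an order in time.

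Islands that did not keep the mark in CM were mostly short. CM H3K9me2 occupied 319.8 Mb of the 1378.3 Mb background, and it covered at least 50% of 847 of the 1299 islands (65.2%). Of these, 212 (25.0%) had at least 50% of their length in CM Lamin B, compared with 30 of the 452 others (6.64%). Under 100 kb, 291 of 596 islands kept the mark by this measure, and 29.6% of those were covered, against 6.89% of the 305 others. From 200 kb upward 233 of 244 islands kept it, and of the 452 that did not, 441 were under 200 kb. Of island sequence under 100 kb, 80.6% was H3K9me2 in CM where it lay in CM Lamin B and 41.8% where it did not. For islands of 500 to 1000 kb the shares were 98.6% and 95.4%. The CM H3K9me2 list has bins of 20 kb and no autosomal domain under 40 kb, against 10 kb and 20 kb in ESC. Its part in the loss of short islands was not tested.

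**Figure D5:**
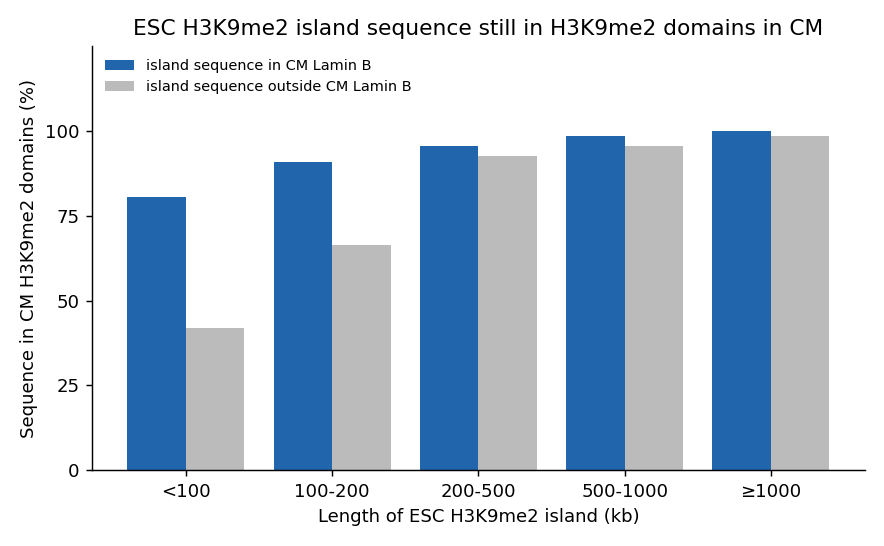
Percent of ESC H3K9me2 island sequence that lay in H3K9me2 domains in CM, by island length (kb), for island sequence inside and outside CM Lamin B. The shares are 80.6% and 41.8% under 100 kb and come together with length, at 98.6% and 95.4% for 500 to 1000 kb.

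To see how far this relation depends on which cell type comes first, the same measure was taken with ESC and CM exchanged. Outside CM Lamin B (1293.7 Mb), ESC Lamin B covered 7.47% of CM H3K9me2 sequence and 1.11% of the rest, a difference of 6.36 points and a ratio of 6.75. The ratio was thus near the 7.07 of the comparison in the order of differentiation, with less Lamin B sequence to place (2.29% of the background against 8.29%). At like distance the ratios were 2.59 and 4.64, and for islands 7.38 and 5.77, so their order changed with the measure. When both lists came from CM, that is with CM H3K9me2 and CM Lamin B outside ESC Lamin B, coverage was 30.2% inside and 1.68% outside, a ratio of 18.0. For CM Lamin B the ratio for the CM mark was thus higher than the 7.07 for the ESC mark. The share of islands with at least 50% covered was lower, at 15.1% against 18.6%. When both lists came from ESC, outside CM Lamin B, the ratio was 9.79, against 6.75 for the CM mark. For islands at like distance these ratios had the other order, at 5.90 and 7.38. All these values share lists with each other, and whether they differ was not tested.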

How the data were processed

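ChIP-seq reads of 18 mouse libraries were processed with STAR, Picard and deepTools against mm9, per the submitters' processing notes, where versions are missing. The authors deposited 4 lists of enriched domains, with start, end and a score per domain. The track names carry g 10, an automatic bin and an FDR of 5, per the file headers. The caller and the scale of the deposited score are not stated there. Scores were used only to describe domains and to filter within a list. The replicate libraries enter no list separately, so no value has a replicate error.

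Each list was laid on a 1 kb grid, on which all its edges fall (Python 3.11.15, numpy 2.4.6, pandas 2.3.3), from the first to the last domain end of each chromosome over the 4 lists. Distance ran from each 1 kb unit to the nearest ESC Lamin B domain, in bins with edges at 25, 50, 100, 250, 500 and 1000 kb. Rotation p-values are two-sided over 10000 rotations, adjusted with statsmodels 0.14.6. Rotation assumes that any shift along a chromosome is equally likely, so large-scale features that lists may share are not held fixed. The rotation procedure was tried on simulated chromosomes for the differences over all sequence, at like distance and for islands. The island count, the length comparisons and the single distance and length classes were not simulated. Tools for drawing were matplotlib 3.10.9.

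Named regions were the 5 longest islands, the 5 longest with at least 50% and with none of their length in CM Lamin B, the 3 farthest of the covered ones, and the 3 longest flanking stretches wholly in and wholly outside CM Lamin B. Members, length and distance classes were chosen with earlier results of these data known. The reference tables are of another build, so no genes or sequences are given. Alternatives were a margin around ESC Lamin B, score filters, merging across gaps, gap length as a further stratum and rotation along whole chromosomes. Others left out single chromosomes or distal chromosome 3. Further ones changed the cut for island length, the share of an island covered, or took the length of the stretch outside ESC Lamin B.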

Additional observations from a re-analysis of the deposited data

How the results depend on the processing

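No paired analysis was possible because the lists hold no value per library, and for the same reason single libraries could not be omitted. Alternatives were counted as pairs of a result and a setting and numbered 172. Most of them left out a single chromosome and share most of their sequence, so they are not independent checks. Of the 172, 165 kept the direction and the side of the threshold and, for counts of islands, stayed near the reported count. The other 7 were 4 of the comparison of island lengths and 3 counts that still passed the test, given below. The difference between marked and unmarked sequence kept both in all 26 of its alternatives and in all 27 at like distance, with values down to 13.2 and 10.4 points when only CM Lamin B domains at or above the median score counted. With that filter the island difference was 5.31 points. Leaving out each chromosome in turn gave 21.9 to 23.7 points for all sequence, 18.7 to 20.5 at like distance, 15.2 to 17.0 for islands, 4.66 to 7.33 for long minus short islands, 11.6 to 14.0 for these at like distance, and 215 to 241 covered islands. The comparison of island lengths depended on the score filters. With CM Lamin B domains at or above the median score it was -2.55 points, or 2.50 at like distance. With ESC H3K9me2 domains at or above the median score it was 2.29 and 2.83 points (permutation p = 0.55 and 0.59), a setting that left 5 of 596 islands under 100 kb and so cannot compare the classes. Covered islands numbered 84 with the ESC H3K9me2 filter, 110 with the CM Lamin B filter and 96 after merging ESC H3K9me2 across gaps under 100 kb, each above its rotated mean of 28.7, 65.3 and 52.0 (permutation p = 0.0002); these settings change the number of islands or of Lamin B domains by construction. The distance bins without distal chromosome 3 were an alternative chosen after seeing the data. Leaving out that CM Lamin B domain could change only the bins it reaches, and the other bins kept their values by construction. The domain holds no ESC H3K9me2, so the observed island length differences and the count of covered islands could not change either. Agreement in these cases carries no information on robustness. Values without a test were not recomputed under alternatives. Depth is unknown, so a domain may be missing from a list because of shallow sequencing.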
